A study of Rattus norvegicus with 15 samples.

Results

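Genes of the cholesterol and fatty acid synthesis pathways were followed in the rat myoblast line H9c2. The members were 37 listed targets or regulators of the SREBP pathway, and they were found in the deposited count table by their symbols. Of the 37 listed genes, 35 were among the 11574 genes of the table, and Lbr and Elovl6 were not analysed here. They fall into 19 enzymes of sterol synthesis, 6 genes of sterol sensing and transport, and 10 genes of fatty acid synthesis and activation.

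H9c2 is 1 line derived from embryonic rat heart whose cells divide as myoblasts and form myotubes when serum is lowered. RNA-seq libraries were made from 15 cultures in 5 groups of 3 replicates. The T0 group was harvested at day 0, after 24 hours of attachment in medium with 10% fetal bovine serum. The T7-RA and T14-RA groups were kept for 7 and 14 days in medium with 1% serum, and the T7+RA and T14+RA groups for as long in the same medium with 1 μM all-trans retinoic acid (RA) added daily from a solution in DMSO. No group carried a genetic change, and whether the cultures without RA received DMSO is not given in the sources used here. The titles of all samples name H9c2, although the cell line field of the labels counts upward from sample to sample. Day 0 differed from the later days in both time in culture and serum, so these cannot be told apart, and in bulk RNA a change in the share of myotubes and a change in RNA per cell cannot be told apart either.

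Values are given as CPM, a gene's reads scaled to a common library size after TMM normalization. Libraries held 508397 to 1030820 counts, so a level of 1 CPM stood for about 1 read at most. The labelled cell type was checked first. Of 11 listed markers of skeletal myoblasts and myotubes, 9 were in the table, and their summed level was 915 to 931 CPM at T0, 9557 to 9918 CPM in T14-RA and 4193 to 4940.1 CPM in T14+RA. Of the 9, 7 rose and 1 fell in the T14 term, against 8.47% and 8.85% of all genes. The 1 that fell, Cdh15, had the largest mean of them at T0, 638 CPM, and 324 CPM in T14-RA. Myod1, not called, had means of 115 and 80.2 CPM. In T14-RA, Myh3 and Acta1 had means of 5056 and 3258 CPM. Of 9 cardiomyocyte markers, 2 were in the table, at a summed level of at most 38.4 CPM. Myh6, Nppa, Nppb, Tnni3, Nkx2-5, Tbx5 and Ryr2 were not among the genes analysed here. Of 10 adipocyte markers, 3 were in the table, without Adipoq, Plin1, Fabp4 and Pparg, and their median sum was 20.7 CPM at T0 and 84.1 to 86.8 CPM in T14-RA. Of 7 fibroblast markers, 5 were in the table, without Col1a2 and Pdgfra, and their summed level was the highest of these lists, at 27431 to 40872 CPM at T0, 28441 to 28684 CPM in T14-RA and 23275 to 29473 CPM in T14+RA. Of the 5, 3 rose and 1 fell in the T14 term (Col1a1, not called without T0 replicate 3), against 8.47% and 8.85% of all genes. With RA 1 rose and 3 fell, against 3.33% and 3.07%, with the RA calls of Dcn, the 1 that rose, and Lum lost in 4 and 8 of 15 single omissions of a library (0.88 to 1.23 and -2.08 to -1.72). None of 5 hepatocyte markers, 1 of 5 macrophage markers and 1 of 5 endothelial markers were in the table. The T0 libraries differed from each other more than those of other groups did, with a chi-square per gene of 2.06 to 3.09 against 1.07 to 2.04.

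Animal cells make cholesterol from acetyl-CoA in the mevalonate pathway and the sterol branch that follows it, and they make fatty acids from the same precursor. Transcription factors of the SREBP family drive both: SREBP2, encoded by Srebf2, mainly the sterol genes, and SREBP1, encoded by Srebf1, mainly the fatty acid genes. When membranes are low in sterol, the escort protein SCAP carries SREBP to the Golgi, where it is cut and released, and INSIG proteins hold the complex back when sterol is plentiful. Sterols and fatty acids go into the membranes of growing cells, and SREBP target genes are known to answer to the sterol supply from serum.

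From T0, 17 of 19 sterol enzymes and 6 of 10 fatty acid genes rose at day 7, and 16 and 4 did at day 14, while 13 sterol enzymes and 1 fatty acid gene were lower with RA. The model had a term for day 7, a term for day 14 and a term for RA. The first 2 are changes against T0 adjusted for RA, the RA term is the mean RA change over both days, and genes were called at an edgeR adjusted p under 0.001. Changes are log2 fold changes ± SE. At day 7, 25 of the 35 members were called higher and 0 lower, where 4.29% of all genes were raised and 4.44% lowered. At an unadjusted p under 0.05, 0 members were lower, against 1929 of all 11574 genes. At day 14, 22 members were called higher and 0 lower, against 8.47% and 8.85% of all genes. Again 0 were lower at an unadjusted p under 0.05, against 2422 of all genes. With RA, 1 member was called higher and 14 were called lower, against 3.33% and 3.07% of all genes, and the count called higher was 2 without T0 replicate 2, T7-RA replicate 3 or T7+RA replicate 3. DESeq2 and limma-voom also called 0 members lower at day 7 and at day 14.

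By arm, the 19 sterol enzymes had median log2 fold changes of 1.29 and 1.21 at days 7 and 14 and -0.60 with RA. The 10 fatty acid genes had medians of 0.81 and 0.58 and means of 1.11 and 1.10. With RA 1 rose and 1 fell, with a median of 0.13 and a mean of 0.016. Of the 6 genes of sensing and transport, 2 rose at each day, with medians of 0.19 and 0.48, and 0 were called for RA, with a median of -0.067. The medians over all genes were 0.022, 0.045 and -0.0086. These medians describe the lists, and no test was run over a list.

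Averaged over the 19 sterol enzymes, the log2 level above T0 was 1.32 ± 0.089 (SD, n = 3) at day 7 and 1.23 ± 0.053 at day 14 without RA, and 0.78 ± 0.013 and 0.75 ± 0.070 with RA. All 6 cultures with RA lay below all 6 cultures without RA of the later days, and all 12 lay above T0. For the fatty acid genes the same average was 1.13 ± 0.020 and 0.97 ± 0.15 without RA and 1.02 ± 0.012 and 1.11 ± 0.10 with RA. The cultures with RA lay slightly below those without RA at day 7, and the groups overlapped at day 14. In summed CPM the sterol enzymes went from 1729 ± 99.6 at T0 to 4532 ± 121 in T7-RA and 2986 ± 75.0 in T7+RA, and the fatty acid genes from 1672 ± 96.2 to 2971 ± 65.5 and 2716 ± 69.0. The fatty acid sum was 2605 ± 213 in T14-RA and 3207 ± 124 in T14+RA, without overlap (2403 to 2828 against 3104 to 3345). Of these sums Scd made up a mean of 528 in T14-RA and 1019 to 1196 in T14+RA.

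**Figure D1:**
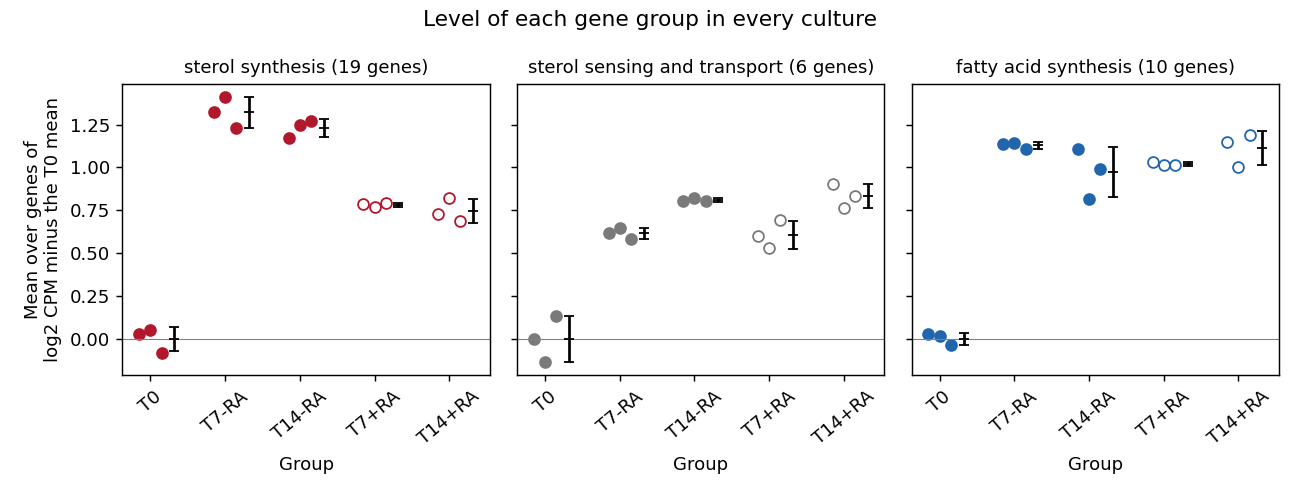
Mean over the genes of each arm of log2 CPM minus the T0 mean (y axis) in the 5 groups (x axis), with a point for each culture (open with RA) and bars for mean ± SD, n = 3. The sterol points with RA lie near 0.75, below those without RA, while the fatty acid points of all 4 later groups lie close together.

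**Figure D2:**
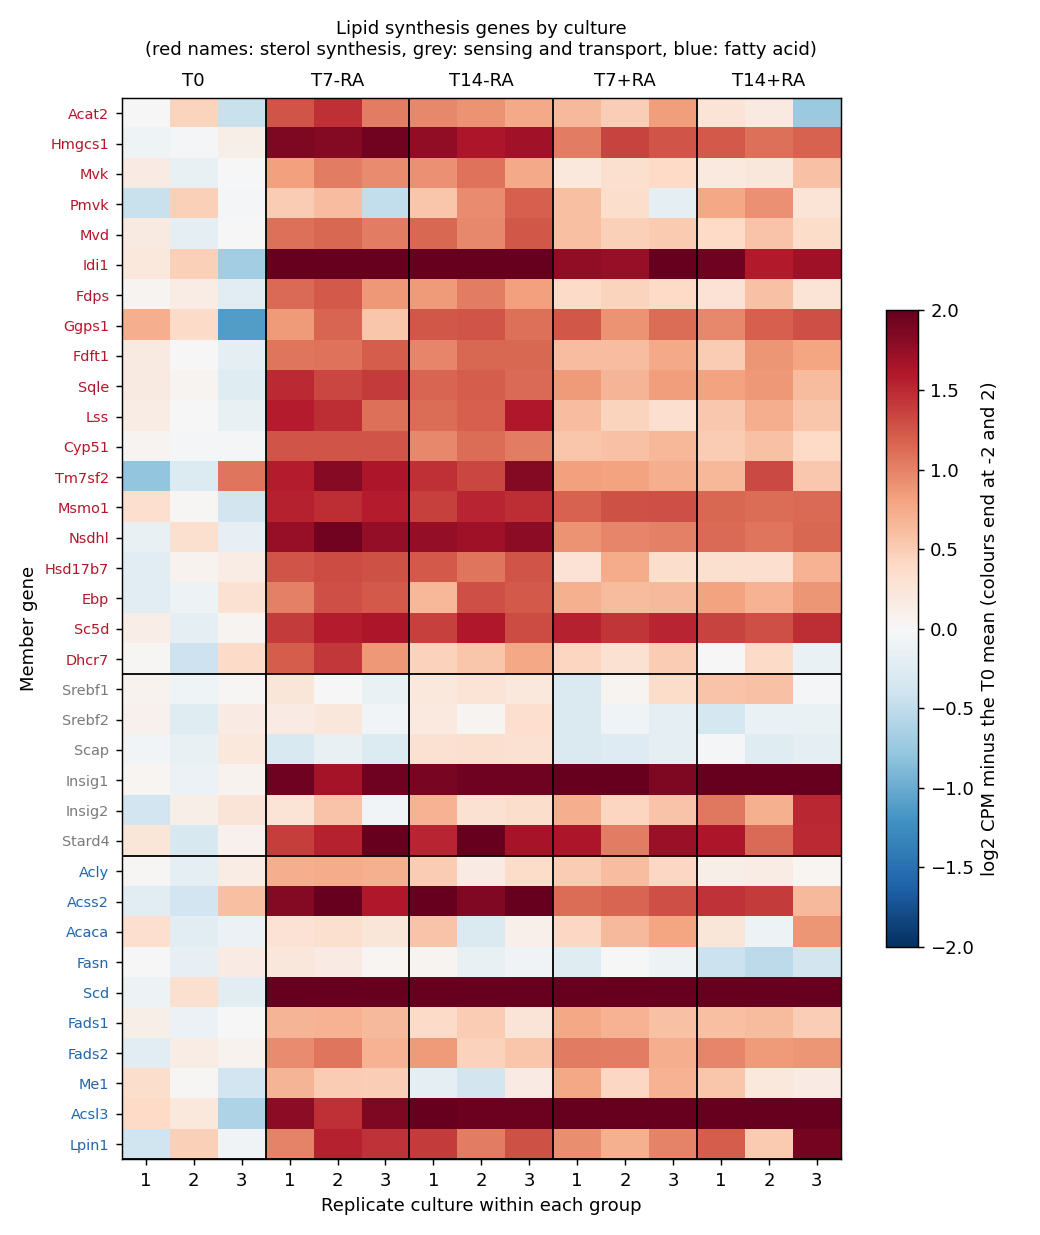
Log2 CPM minus the T0 mean (colour, ending at -2 and 2) of the 35 genes (rows, in 3 blocks for sterol synthesis, sensing and transport, and fatty acid synthesis) in the 15 cultures (columns, by group and replicate number, which has no order). Most sterol rows are darker red without RA than with RA, while Insig1, Scd and Acsl3 stay dark in all later groups.

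The promoters of 8 members, chosen with their values known, are printed first, because SREBP target genes are known to carry binding sites for SREBP and for the factor NF-Y near their start. The sequences are from RefSeq on the assembly GRCr8 and run from 250 bases before to 50 bases after each gene's start, and 29 of the 35 members matched. Pmvk, Fdft1, Sqle, Stard4, Acaca and Fasn did not match. In lower case, capitals mark the letters CCAAT, the core bound by NF-Y, or CACNCCAC, a short form of the sterol regulatory element, on either strand, so that a match on the opposite strand stands in capitals as its reverse complement. Hmgcs1, Idi1, Nsdhl and Lss stand for the sterol enzymes that rose with time and fell with RA, and Acss2 for the fatty acid arm gene that did the same. Insig1, Acsl3 and Scd are the 3 that rose with RA at day 14.
Hmgcs1 (chr2:53382054-53382353, plus strand): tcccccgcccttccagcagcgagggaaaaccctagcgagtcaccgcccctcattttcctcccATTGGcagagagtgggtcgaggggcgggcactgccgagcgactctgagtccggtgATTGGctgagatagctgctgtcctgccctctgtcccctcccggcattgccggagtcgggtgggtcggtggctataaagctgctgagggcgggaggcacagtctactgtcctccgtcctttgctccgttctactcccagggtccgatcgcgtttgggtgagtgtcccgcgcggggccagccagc
Idi1 (chr17:66547475-66547774, minus strand): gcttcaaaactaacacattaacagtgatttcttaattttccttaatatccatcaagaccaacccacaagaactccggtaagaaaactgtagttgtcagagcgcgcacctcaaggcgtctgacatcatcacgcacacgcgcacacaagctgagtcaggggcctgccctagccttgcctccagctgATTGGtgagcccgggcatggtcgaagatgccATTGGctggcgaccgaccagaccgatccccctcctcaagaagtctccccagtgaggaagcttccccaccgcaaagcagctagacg
Nsdhl (chrX:155817110-155817409, plus strand): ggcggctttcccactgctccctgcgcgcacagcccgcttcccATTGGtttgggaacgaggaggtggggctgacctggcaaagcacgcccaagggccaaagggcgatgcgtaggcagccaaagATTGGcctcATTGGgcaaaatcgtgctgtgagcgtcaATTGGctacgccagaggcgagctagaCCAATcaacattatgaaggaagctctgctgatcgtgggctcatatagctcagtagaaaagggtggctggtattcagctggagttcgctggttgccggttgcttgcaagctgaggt
Lss (chr20:12118181-12118480, minus strand): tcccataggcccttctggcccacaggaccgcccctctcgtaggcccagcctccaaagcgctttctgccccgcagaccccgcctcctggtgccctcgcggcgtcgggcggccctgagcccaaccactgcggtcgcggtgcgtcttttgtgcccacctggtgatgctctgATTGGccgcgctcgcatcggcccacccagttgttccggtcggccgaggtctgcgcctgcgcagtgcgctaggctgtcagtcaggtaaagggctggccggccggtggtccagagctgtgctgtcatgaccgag
Acss2 (chr3:164464453-164464752, plus strand): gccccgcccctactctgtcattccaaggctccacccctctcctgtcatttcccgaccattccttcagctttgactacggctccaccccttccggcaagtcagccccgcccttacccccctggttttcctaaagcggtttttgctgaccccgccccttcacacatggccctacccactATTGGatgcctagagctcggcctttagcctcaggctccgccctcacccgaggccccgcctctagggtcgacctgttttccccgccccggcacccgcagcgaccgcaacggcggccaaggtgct
Insig1 (chr4:8057720-8058019, minus strand): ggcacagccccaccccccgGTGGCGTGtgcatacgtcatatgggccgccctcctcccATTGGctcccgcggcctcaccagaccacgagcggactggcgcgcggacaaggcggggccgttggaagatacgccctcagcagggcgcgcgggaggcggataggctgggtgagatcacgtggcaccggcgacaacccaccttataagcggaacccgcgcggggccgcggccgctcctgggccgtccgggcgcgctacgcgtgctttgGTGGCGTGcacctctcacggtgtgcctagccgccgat
Acsl3 (chr9:87563351-87563650, plus strand): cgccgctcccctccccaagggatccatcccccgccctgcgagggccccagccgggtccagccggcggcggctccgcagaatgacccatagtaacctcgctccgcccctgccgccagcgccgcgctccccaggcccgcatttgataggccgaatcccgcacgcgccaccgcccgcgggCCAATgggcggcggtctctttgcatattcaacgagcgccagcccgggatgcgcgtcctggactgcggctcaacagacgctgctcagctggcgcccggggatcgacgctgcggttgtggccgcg
Scd (chr1:253231682-253231981, minus strand): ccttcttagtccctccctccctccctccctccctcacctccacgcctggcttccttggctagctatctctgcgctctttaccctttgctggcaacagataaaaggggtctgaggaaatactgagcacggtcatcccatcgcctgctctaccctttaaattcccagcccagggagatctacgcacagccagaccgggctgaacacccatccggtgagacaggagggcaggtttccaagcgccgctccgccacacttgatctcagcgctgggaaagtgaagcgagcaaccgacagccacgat

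The letters CCAAT were found in a promoter of 22 of 29 members (75.9%), against 39.3% of the 8608 genes of the count table with a promoter and 39.6% of all 27457 genes with one, where a gene counts once if any of its promoters holds the letters. Among the 16 sterol enzymes with a promoter, 13 held them (81.2%), and Mvk and Nsdhl held 5 copies each. CACNCCAC, a motif chosen after the promoters were searched, was found in 4 members (13.8%), Acat2, Ebp, Fads1 and Insig1, against 6.01% of the table's genes and 6.25% of all genes with a promoter. The longer form TCACNCCAC, which contains it, was found in 0 of the 29, against 1.2% of the table's genes. The GC box GGGCGG was found in 23 members (79.3%), against 65.7% of the table's genes and 36.0% of all genes with a promoter, and it is not marked above. Of the 8 printed promoters, that of Scd holds neither marked motif. A match of letters is a description of these windows only.

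The sterol enzymes are taken in the order of the pathway, and values are given in the order of the replicate numbers, first at T0 and at days 7 and 14 without RA. Acat2 (ENSRNOG00000019189) encodes the thiolase that joins acetyl-CoA units for the mevalonate pathway. Its level was 74.5, 103 and 54.5 CPM at T0, 184, 211 and 155 at day 7 and 149, 142 and 129 at day 14, and with RA 119.7, 106 and 135 at day 7 and 90.7, 84.9 and 43.5 at day 14. The cultures with RA were lower than those without RA at both days, and those at day 14 lay within or below the T0 range. The RA change was -0.74 ± 0.12, adjusted p = 9.22e-06 on the log2 scale, and at day 14 alone -0.88 ± 0.18, adjusted p = 0.000336, a call lost in 4 of 15 single omissions of a library (-1.10 to -0.67). Its T14 call (0.79 ± 0.19) was lost in 7 of 15 omissions, over which the change ran from 0.63 to 1.03.

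Hmgcs1 (ENSRNOG00000016552), the cytosolic HMG-CoA synthase, makes the substrate of the pathway's main regulated step. Its level was 169.7, 176 and 195 CPM at T0, 663, 653 and 693 at day 7 and 622, 558 and 586 at day 14. With RA, Hmgcs1 was at 368, 462 and 435 at day 7 and 427, 391 and 413 at day 14. None of the 3 conditions, T0, later without RA and later with RA, overlapped with another. The T7 change was 1.86 ± 0.12, adjusted p = 8.27e-20, a 3.64-fold rise, and the RA change was -0.59 ± 0.077, adjusted p = 1.18e-08, so that levels with RA were 1.51-fold lower. RA lowered it at day 7 (-0.67 ± 0.10, adjusted p = 6.94e-07) and at day 14 (-0.52 ± 0.10, adjusted p = 0.000114), the latter a call lost in 3 of 15 single omissions (-0.56 to -0.48).

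Mevalonate is then phosphorylated by Mvk and Pmvk and decarboxylated by Mvd. Mvd (ENSRNOG00000013376) was at 62.1, 46.9 and 54.5 CPM at T0, 119, 124 and 113 at day 7 and 124, 108 and 132 at day 14. With RA, Mvd was at 84.1, 76.5 and 78.8 at day 7 and 72.3, 81.7 and 70.7 at day 14. Its cultures with RA were lower at both days and above T0, with an RA change of -0.64 ± 0.12, adjusted p = 2.16e-05. Mvk rose with time (T7 0.96 ± 0.22, adjusted p = 0.000663) and its RA change of -0.65 ± 0.15 missed the threshold at an adjusted p of 0.00102, although no culture with RA reached one without RA of the same day. The T7 call of Mvk was lost in 7 of 15 single omissions of a library, with changes of 0.89 to 1.09, and the T14 call in 5 of 15, with 0.90 to 1.09. Pmvk was called in no comparison, at 16.0 to 57.6 CPM over all cultures.

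Idi1 (ENSRNOG00000016690), the isomerase that makes the 2 isoprene building blocks interchangeable, had the largest rise of the sterol enzymes. It was at 26.2, 31.9 and 12.6 CPM at T0, 138, 125 and 151 at day 7 and 113, 113 and 96.5 at day 14. With RA, Idi1 was at 82.7, 80.5 and 97.7 at day 7 and 93.6, 72.3 and 78.0 at day 14. The T7 change was 2.45 ± 0.22, adjusted p = 7.90e-14 (5.46-fold) and the RA change -0.53 ± 0.12, adjusted p = 0.000728. At each day the cultures with RA were lower than those without RA and above T0. T0 replicate 3 held 6 reads of this gene, and the RA call was lost in 10 of 15 single omissions, over which the change stayed at -0.62 to -0.48.

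Fdps (ENSRNOG00000043377) joins the units to farnesyl diphosphate. Its levels were 292, 313 and 243 CPM at T0, 621, 664 and 517 at day 7 and 510.5, 574 and 498 at day 14. With RA, Fdps was at 368, 384 and 372 at day 7 and 344, 423 and 341 at day 14. Every RA culture lay between T0 and the cultures without RA. The RA change was -0.60 ± 0.083, adjusted p = 5.72e-08, and it was called at day 7 (-0.68 ± 0.11) and at day 14 (-0.52 ± 0.11), where the call was lost in 5 of 15 single omissions (-0.61 to -0.45). Ggps1, which leads farnesyl diphosphate to prenylation instead of sterols, was called in no comparison, at 2.10 to 23.6 CPM.

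Squalene is made by Fdft1 and oxidised by Sqle, the first steps that lead only to sterols. Fdft1 (ENSRNOG00000021314) was at 141, 126 and 109 CPM at T0, 265, 266 and 293 at day 7 and 247, 278 and 279 at day 14. With RA, Fdft1 was at 192, 193 and 213 at day 7 and 178, 233 and 218 at day 14. Sqle (ENSRNOG00000009550) was at 222, 203 and 166 CPM at T0, 555, 499 and 520.0 at day 7 and 442, 455 and 430.1 at day 14. With RA, Sqle was at 355, 315 and 349.7 at day 7 and 343, 358 and 305 at day 14. In both genes the cultures with RA lay between T0 and the cultures without RA, with no overlap. The RA changes were -0.42 ± 0.089, adjusted p = 0.000353 for Fdft1 and -0.51 ± 0.081, adjusted p = 1.50e-06 for Sqle. Sqle was also called at day 7 alone (-0.63 ± 0.11, adjusted p = 8.16e-06), while the RA call of Fdft1 was lost in 6 of 15 single omissions, at -0.45 to -0.37.

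Lss (ENSRNOG00000054549), lanosterol synthase, closes the sterol rings. It was at 67.6, 60.0 and 54.5 CPM at T0, 186, 173 and 134 at day 7 and 135, 142 and 189.7 at day 14. With RA, Lss was at 94.1, 83.2 and 77.1 at day 7 and 88.7, 102 and 90.6 at day 14. The highest culture with RA was below the lowest one without RA. Its RA change of -0.84 ± 0.11, adjusted p = 4.28e-08, a 1.79-fold lower level, was the largest fall of the members together with that of Tm7sf2, and it was called at day 7 (-0.96 ± 0.16) and at day 14 (-0.72 ± 0.16). The day 14 call of Lss was lost in 5 of 15 single omissions (-0.83 to -0.56).

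Cyp51 (ENSRNOG00000007234) and Tm7sf2 (ENSRNOG00000020989) remove a methyl group from lanosterol and reduce the product. Cyp51 was at 312, 295 and 293 CPM at T0, 721, 720.3 and 725 at day 7 and 587, 654 and 615 at day 14. With RA, Cyp51 was at 440.5, 451 and 478 at day 7 and 426, 451 and 397 at day 14. The cultures with RA lay between T0 and those without RA. The RA change of -0.60 ± 0.075, adjusted p = 3.25e-09 was called at day 7 (-0.66 ± 0.097) and at day 14 (-0.54 ± 0.099) too. Tm7sf2 was at 8.28, 13.1 and 37.7 CPM at T0, 54.9, 65.8 and 56.6 at day 7 and 50.4, 46.0 and 66.0 at day 14. With RA, Tm7sf2 was at 31.4, 30.9 and 29.1 at day 7 and 28.0, 45.6 and 25.4 at day 14. Its T0 cultures spread widely and reached into the range of the cultures with RA, and its T7 and T14 calls were both lost without T0 replicate 1, where the changes were 1.21 and 1.18. Its RA change was -0.84 ± 0.19, adjusted p = 0.000692, and that call was lost in 10 of 15 single omissions, at -0.96 to -0.77.

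Msmo1, Nsdhl and Hsd17b7 take off the next methyl groups. Nsdhl (ENSRNOG00000057814) was at 46.9, 65.7 and 46.1 CPM at T0, 181, 207 and 183 at day 7 and 184, 175 and 188 at day 14. With RA, Nsdhl was at 99.8, 106 and 108 at day 7 and 118, 113 and 119.6 at day 14. These values form 3 separate ranges. Its RA change was -0.75 ± 0.10, adjusted p = 2.74e-08, with -0.86 ± 0.14, adjusted p = 2.94e-06 at day 7 and -0.64 ± 0.14, adjusted p = 0.000449 at day 14, where the call was lost without any 1 of the 6 libraries of that day (-0.67 to -0.62). Hsd17b7 (ENSRNOG00000002826) was at 30.3, 37.5 and 39.8 CPM at T0, 89.5, 92.7 and 90.0 at day 7 and 87.7, 77.9 and 89.7 at day 14. With RA, Hsd17b7 was at 44.2, 61.8 and 46.3 at day 7 and 45.3, 45.6 and 59.8 at day 14. No culture with RA reached the lowest one without RA, and the RA change was -0.81 ± 0.14, adjusted p = 5.10e-06. Msmo1 rose at day 7 (1.50 ± 0.13, adjusted p = 7.90e-14) but its RA change was -0.30 ± 0.086, adjusted p = 0.00905, which did not pass the threshold, although its cultures with and without RA did not overlap.

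Ebp, Sc5d and Dhcr7 finish the sterol. Dhcr7 (ENSRNOG00000020776), the last reductase, was at 69.0, 50.7 and 90.1 CPM at T0, 162, 185 and 126 at day 7 and 94.9, 101 and 119 at day 14. With RA, Dhcr7 was at 92.7, 84.6 and 97.7 at day 7 and 67.5, 89.6 and 61.6 at day 14. It was called higher at day 7 (1.14 ± 0.18, adjusted p = 9.25e-07) but not at day 14 (0.65 ± 0.19, adjusted p = 0.00378), and its cultures with RA at day 14 overlapped T0. The RA change was -0.67 ± 0.12, adjusted p = 3.50e-05, and at day 7 alone -0.80 ± 0.16, adjusted p = 0.000294, a call lost in 5 of 15 single omissions (-0.91 to -0.67). Sc5d rose at both days (T7 1.57 ± 0.16, T14 1.45 ± 0.16) and had an RA change of -0.045 ± 0.097, adjusted p = 0.85, with overlapping cultures at 144 to 179 CPM without RA and 141 to 169.6 CPM with RA. Ebp rose at both days, at adjusted p of 0.000821 and 0.000571, with the T7 call lost in 10 of 15 single omissions (1.13 to 1.44) and the T14 call in 4 of 15 (1.13 to 1.44), and its RA change of -0.42 ± 0.19 was not called (adjusted p = 0.136).

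**Figure D3:**
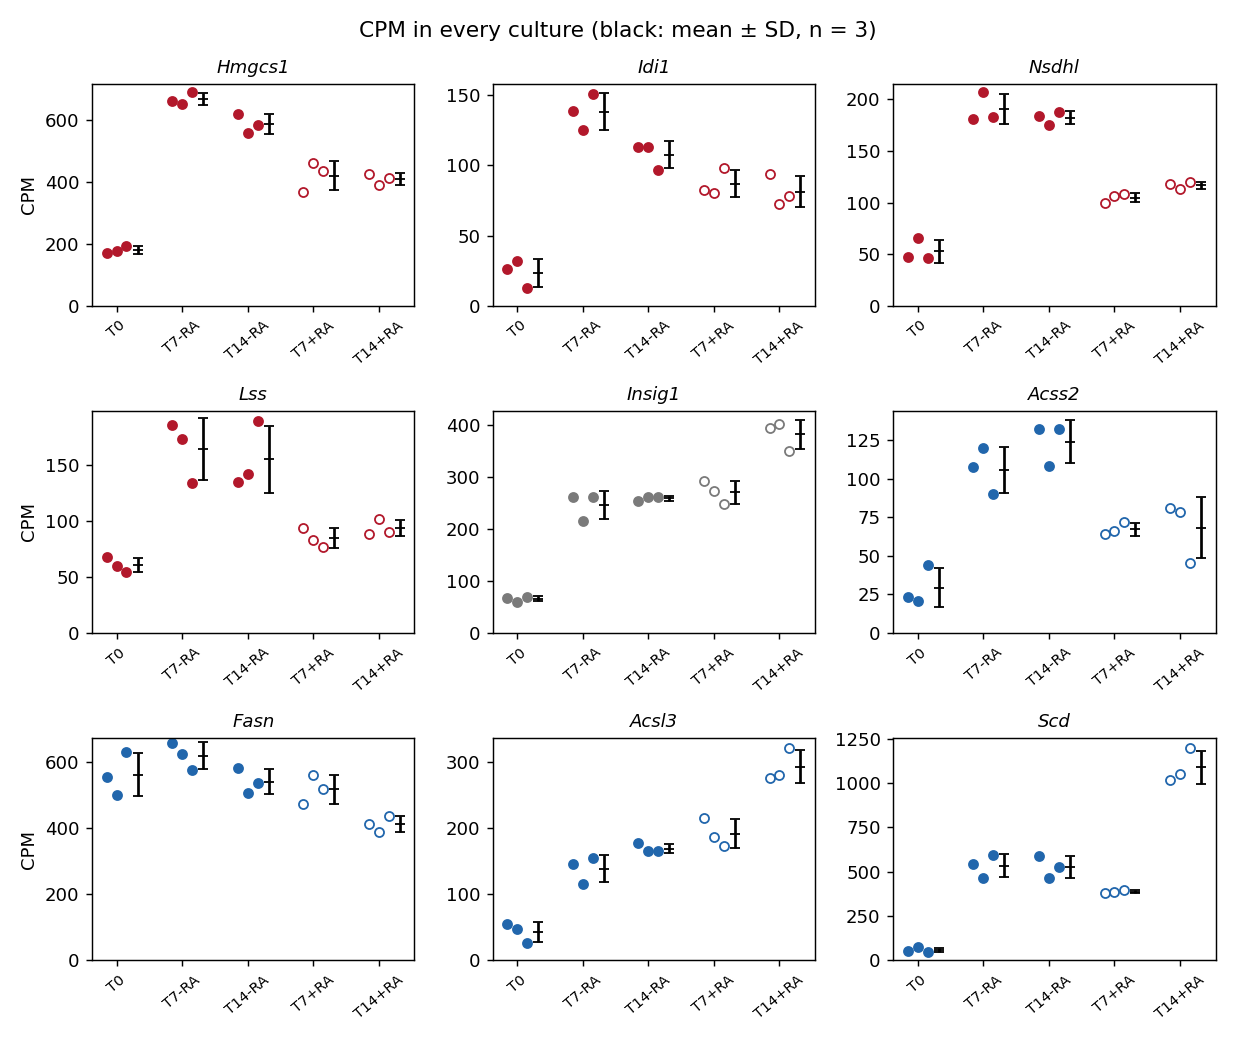
CPM (y axis, from 0, on a scale of its own in each panel) of 9 genes in the 5 groups (x axis), with a point for each culture, open with RA, and bars for mean ± SD, n = 3. Hmgcs1, Idi1, Nsdhl, Lss and Acss2 are lower with RA at both days, Insig1 and Acsl3 are higher with RA at day 14, and Scd is lower with RA at day 7 and higher at day 14.

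**Figure D4:**
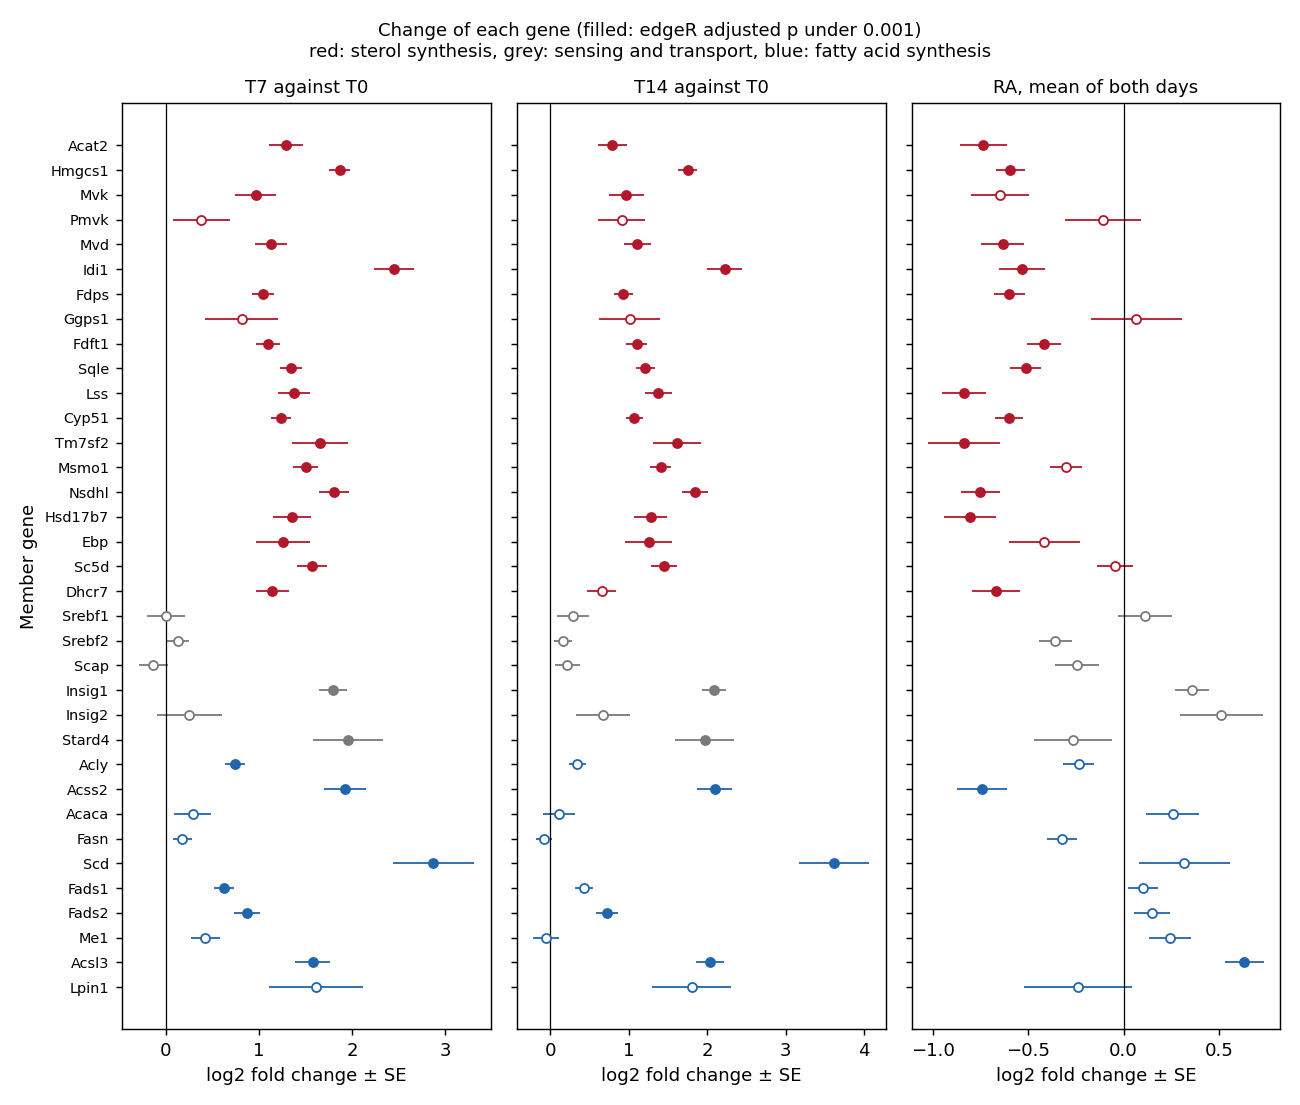
Log2 fold change ± SE (x axis) of the 35 genes (y axis) for day 7 against T0, day 14 against T0 and RA over both days, filled where the edgeR adjusted p was under 0.001. The red sterol points lie right of 0 in the panels for time and mostly left of 0 for RA, with Sc5d, Ggps1 and Pmvk near 0.

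Of the genes of sterol sensing and transport, only Insig1 and Stard4 were called. Srebf1 and Srebf2 encode the SREBP factors, Scap their escort, and none of them was called in any comparison. Srebf1 was at 47.0 to 88.0 CPM over all cultures and its RA change was 0.11 ± 0.14, adjusted p = 0.709. Srebf2 was at 283 to 374 CPM in the later cultures without RA and 232 to 281 with RA. Its RA change of -0.36 ± 0.088, adjusted p = 0.00189 did not pass the threshold, although no culture with RA reached one without RA of the same day. Scap was at 84.7 to 131 CPM, with an RA change of -0.25 ± 0.12, adjusted p = 0.17. At day 14 it was at 129.7, 131 and 130.4 CPM without RA and 103, 88.0 and 90.6 CPM with RA, which did not overlap, and the RA change of -0.45 ± 0.15, adjusted p = 0.0407 passed 0.05 but not 0.001.

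Insig1 (ENSRNOG00000006859), which retains SCAP in the endoplasmic reticulum and is itself an SREBP target, rose with time as the enzymes did. Its level was 67.6, 60.0 and 69.2 CPM at T0, 261, 215 and 261 at day 7 and 253, 260.4 and 261 at day 14. With RA, Insig1 was at 291, 273 and 247 at day 7 and 394, 401 and 349.9 at day 14. The groups with and without RA overlapped at day 7, and all 3 cultures with RA were higher at day 14. The T14 change was 2.09 ± 0.15, adjusted p = 2.19e-17. RA raised it at day 14 (0.57 ± 0.11, adjusted p = 0.000122), where 3 members in all were called higher and 7 lower against 2.46% and 2.35% of all genes. The RA change at day 7 was 0.14 ± 0.12, adjusted p = 0.64, and day 14 minus day 7 was 0.43 ± 0.16, adjusted p = 0.341, which was not called. From T7+RA to T14+RA it rose by 0.50 ± 0.11, adjusted p = 0.000744. The day 14 call was lost in 5 of 15 single omissions (0.54 to 0.62) and the call between the RA groups in 10 of 15 (0.44 to 0.55). Insig2, its relative, was not called, with an RA change of 0.51 ± 0.22, adjusted p = 0.11.

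Stard4 (ENSRNOG00000020468), a carrier of sterol between membranes, was low in reads. Its level was 9.66, 5.63 and 8.38 CPM at T0, 25.1, 28.2 and 42.1 at day 7 and 27.6, 40.7 and 30.5 at day 14. With RA, Stard4 was at 29.9, 18.8 and 32.6 at day 7 and 29.9, 20.4 and 27.2 at day 14. All later cultures were above T0 and those with and without RA overlapped, and the T7 change was 1.95 ± 0.37, adjusted p = 5.05e-05 with an RA change of -0.26 ± 0.21, adjusted p = 0.48.

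The fatty acid arm starts from acetyl-CoA, which 2 of its genes supply. Acss2 (ENSRNOG00000018755), which makes acetyl-CoA from acetate, was at 23.5, 20.6 and 44.0 CPM at T0, 107, 119.6 and 90.0 at day 7 and 132, 108 and 132 at day 14. With RA, Acss2 was at 64.1, 65.8 and 72.0 at day 7 and 81.0, 78.6 and 45.3 at day 14. Every culture with RA was lower than every one without RA of the same day. Its T14 change was 2.09 ± 0.22, adjusted p = 1.60e-11 (4.27-fold), its RA change -0.74 ± 0.13, adjusted p = 1.66e-05 and its RA change at day 14 -0.82 ± 0.18, adjusted p = 0.000655, the last of which was lost in 7 of 15 single omissions (-0.99 to -0.64). Acly, which makes acetyl-CoA from citrate, rose at day 7 (0.74 ± 0.11, adjusted p = 4.76e-07), and its RA change was -0.24 ± 0.080, adjusted p = 0.0349, with 488 to 497 CPM in T7-RA and 394 to 455 in T7+RA. All 3 Acly cultures with RA were lower than all 3 without RA at day 14 too.

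The chain-building enzymes were called in no comparison. Acaca, which makes malonyl-CoA, had a T7 change of 0.29 ± 0.20, adjusted p = 0.315, and its RA change was 0.26 ± 0.14, adjusted p = 0.253. Fasn, the synthase, was at 501 to 629 CPM at T0, 505 to 656 in the later cultures without RA and 387 to 559.8 with RA. Every Fasn culture with RA was lower than every one without RA of the same day. Its T14 change was -0.084 ± 0.10, adjusted p = 0.574 and its RA change -0.33 ± 0.079, adjusted p = 0.00164. Me1, which supplies NADPH for the synthase, had a T7 change of 0.42 ± 0.15, adjusted p = 0.037, and its change from T7-RA to T14-RA (-0.68 ± 0.15, adjusted p = 0.00106) did not pass the threshold. Lpin1, a phosphatidate phosphatase, was the shallowest of these genes, at 2.76 to 25.4 CPM, and its T14 change of 1.80 ± 0.50, adjusted p = 0.0034 was not called.

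The desaturases Fads1, Fads2 and Scd rose with time. Fads1 and Fads2 put double bonds into polyunsaturated fatty acids and rose at day 7, by 0.62 ± 0.11, adjusted p = 9.75e-06 and 0.87 ± 0.14, adjusted p = 1.70e-06. Fads2 was also called at day 14 (0.73 ± 0.14, adjusted p = 3.25e-05, or 0.61 and not called without T0 replicate 1), and their RA changes were 0.10 ± 0.077, adjusted p = 0.465 and 0.15 ± 0.093, adjusted p = 0.348. Fads2 was higher with RA in all 3 cultures at day 14, with 265, 244 and 247 CPM against 241, 184 and 196 CPM, without passing the test. That order was seen in 13.4% of all genes.

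Scd (ENSRNOG00000013552), the stearoyl-CoA desaturase that makes monounsaturated fatty acids, had the largest rise with time and an RA change that turned between the days. Its level was 52.4, 71.3 and 48.2 CPM at T0, 543, 464 and 593 at day 7 and 589.8, 466 and 528 at day 14. With RA, Scd was at 378, 387 and 394 at day 7 and 1019, 1048 and 1196 at day 14. All 3 cultures with RA were lower than those without RA at day 7 and all 3 were higher at day 14. The RA change was -0.46 ± 0.11, adjusted p = 0.0019 at day 7, past 0.05 but not 0.001, and 1.03 ± 0.10, adjusted p = 1.79e-12 at day 14. Day 14 minus day 7 was 1.50 ± 0.15, adjusted p = 5.11e-11. It was the only member called for that difference at an adjusted p under 0.05, where 0.285% of all genes were called higher and 0.458% lower. In the model with 1 RA term for both days the change was 0.32 ± 0.24, adjusted p = 0.488, a mean of opposite directions. Between T7+RA and T14+RA the gene rose 2.81-fold (1.49 ± 0.11, adjusted p = 4.20e-18), against -0.0064 ± 0.11 without RA. From T0 to T7-RA the change was 3.22 ± 0.15, adjusted p = 1.10e-27 where each group was given its own mean. The T7 term of the model with 1 RA term was 2.87 ± 0.44, adjusted p = 0.000483, and that call was lost in 6 of 15 single omissions, over which the change ran from 2.71 to 3.05.

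A near relative, Scd2, lies in the same chromosome band, and whether the counting split reads between the paralogs is not known, so both values carry that uncertainty. Scd2 had 612 to 717 CPM at T0 and 3811 to 5087 CPM in the later cultures, and its RA change was 0.18 ± 0.066, adjusted p = 0.0566. Its RA change was 0.10 ± 0.081, adjusted p = 0.592 at day 7 and 0.26 ± 0.081, adjusted p = 0.0271 at day 14.

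Acsl3 (ENSRNOG00000014718), which activates fatty acids to acyl-CoA at lipid droplets, rose with time and further with RA. It was at 53.8, 46.9 and 25.2 CPM at T0, 146, 116 and 154 at day 7 and 177, 165 and 164 at day 14. With RA, Acsl3 was at 215, 185 and 173 at day 7 and 276, 279.7 and 321 at day 14. The cultures with RA were higher than those without RA at both days. It was the only member called higher in the RA term (0.63 ± 0.10, adjusted p = 1.66e-06), and the RA change was 0.47 ± 0.14, adjusted p = 0.023 at day 7 and 0.78 ± 0.13, adjusted p = 6.12e-06 at day 14. Day 14 minus day 7 was 0.31 ± 0.19, adjusted p = 0.725, which was not called. It also rose from T7+RA to T14+RA (0.60 ± 0.13, adjusted p = 0.000432), a call lost in 6 of 15 single omissions (0.52 to 0.69).

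Taken by day, RA lowered 7 members at day 7, Hmgcs1, Fdps, Sqle, Lss, Cyp51, Nsdhl and Dhcr7, and raised 0, against 1.3% and 1.87% of all genes. At an unadjusted p under 0.05, 1 member was higher, against 1003 of all 11574 genes. DESeq2 and limma-voom also raised 0 at day 7. At day 14 RA lowered Acat2, Hmgcs1, Fdps, Lss, Cyp51, Nsdhl and Acss2, and raised Insig1, Scd and Acsl3, against 2.35% and 2.46% of all genes. The count of 7 lowered at day 14 rested on all the libraries of that day. It was 2 without T14-RA replicate 1, 3 without T14-RA replicate 2 and 1 without T14-RA replicate 3, and it was 3, 3 and 2 without T14+RA replicates 1, 2 and 3. It was 3 with DESeq2 and 15 at an adjusted p under 0.05, where 664 of all 11574 genes were lowered. The sterol enzymes Hmgcs1, Fdps, Lss, Cyp51 and Nsdhl were called lower at both days, and of these only Cyp51 kept the call at both days in all 15 single omissions. A gene called at 1 day and not at the other is not shown to differ between days, and the test of the difference called Scd alone among the members. The median RA change of the 19 sterol enzymes was -0.66 at day 7 and -0.52 at day 14, and that of the 10 fatty acid genes -0.099 and 0.18. The fatty acid median at day 7 was 0.018 over the genes with a mean of at least 10 counts, and that at day 14 was 0.064 without T14+RA replicate 3, 0.092 without T14-RA replicate 2, 0.29 without T14-RA replicate 1 and 0.31 without T14+RA replicate 2.

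**Figure D5:**
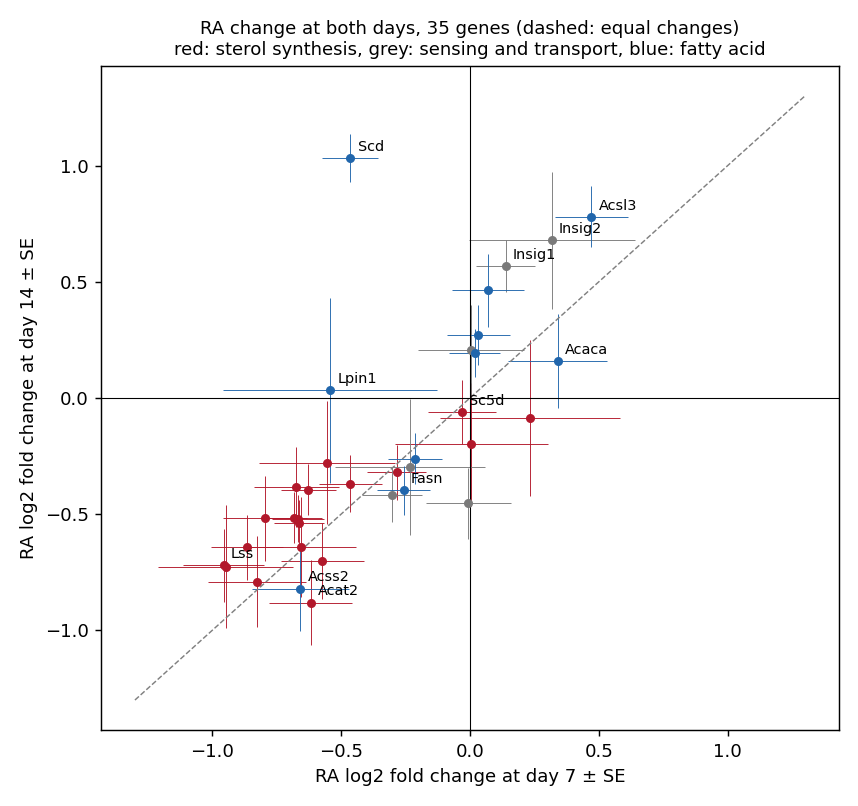
RA log2 fold change ± SE at day 14 (y axis) against day 7 (x axis) of the 35 genes, red for sterol synthesis, grey for sensing and transport and blue for fatty acid synthesis, with a dashed line of equal changes. Most red points lie in the lower left near the line, and Scd lies far up on the left, at -0.46 and 1.03, with Lpin1 at -0.54 and 0.033, whose bars cross 0 at day 14.

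By separation of the cultures, all 3 of T7+RA lay below all 3 of T7-RA in 21 of 35 members, against 12.6% of all genes. These were 16 of 19 sterol enzymes, 1 of 6 sensing genes and 4 of 10 fatty acid genes, Acly, Acss2, Fasn and Scd. At day 14 the count was 20 of 35, against 13.9% of all genes, with 15, 2 and 3 in the 3 groups. The 3 fatty acid genes were Acly, Acss2 and Fasn. The opposite order was seen in 2 members at day 7, Acaca and Acsl3, against 11.8% of all genes. At day 14 it was seen in 5 of 35, Acsl3, Fads2, Insig1, Insig2 and Scd, which was near the share of 13.4% of all genes. None of the members in the opposite order was a sterol enzyme. All 6 later cultures without RA were above all T0 cultures in 26 members, against 12.9% of all genes, and all 6 with RA in 24, against 13.6%.

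The second week was compared within each medium. From T7-RA to T14-RA 0 members were called in either direction, against 1.87% of all genes raised and 1.09% lowered. At an unadjusted p under 0.05 there were 3 higher and 9 lower, against 1080 and 1053 of all 11574 genes, so the count higher was near the share of all genes. With RA, 3 were called higher, Insig1, Scd and Acsl3, and 0 lower, against 2.4% and 2.26% of all genes. Members at an unadjusted p under 0.05 with RA numbered 4 higher and 4 lower, against 1305 and 1306 of all 11574 genes. Both of these counts were near the share of all genes. The count of 3 was 1 without T14-RA replicate 3, T7+RA replicate 2 or 3, or T14+RA replicate 1 or 2, and 1 with DESeq2. Without any 1 of the T0 libraries, T14-RA replicate 3 or T14+RA replicates 2 or 3, 1 member was lower without RA. DESeq2 and limma-voom called 0 members in either direction without RA, and 0 lower with RA.

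Levels between genes are compared per kilobase of the length given in the table, which was read as a transcript length although the sources used here do not define it. At T0 the highest mean was that of Fdps, at 107 CPM per kilobase, followed by Fads2 at 98.5 and Fads1 at 94.2, and the lowest were Lpin1 at 1.56 and Ggps1 at 1.78. In T14-RA sterol enzymes led, with Fdps at 199.8, Cyp51 at 185 and Hmgcs1 at 183 CPM per kilobase. In T14+RA the order was led by Scd at 243, Fads2 at 185 and Insig1 at 158.

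Genes next to these pathways were read from lists. Of 9 other genes of sterol synthesis, 0 were called for time, where 4.29% and 8.47% of all genes rose at days 7 and 14. At an unadjusted p under 0.05, 3 were higher at day 7 and 5 at day 14, against 2029 and 2569 of all 11574 genes. With RA 1 fell, against 3.07% of all genes. That gene was Cyb5r3, a reductase that passes electrons to lipid enzymes, which was at 317, 282 and 311 CPM in T7-RA and 161, 204 and 218 in T7+RA, with an RA change of -0.59 ± 0.087, adjusted p = 3.38e-07. Of 11 genes that process SREBP or degrade the reductase, 1 rose at day 14 (8.47% of all genes), Rnf139 (1.37 ± 0.32, adjusted p = 0.000435), a call lost without T0 replicate 1 (1.26), T0 replicate 3 (1.29) or T14-RA replicate 1 (1.34). For RA 0 of the 11 were called. At an unadjusted p under 0.05, 3 were higher with RA and 0 lower, against 1395 and 1473 of all 11574 genes.

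Uptake, efflux and esterification of cholesterol were read from a further list. Of its 15 genes in the table, 3 rose with RA and 0 fell, against 3.33% and 3.07% of all genes. At an unadjusted p under 0.05, 1 fell with RA, against 1473 of all 11574 genes. In the T14 term 5 rose and 1 fell, against 8.47% and 8.85%, so the count that fell was near the share of all genes. Abca1, the pump that exports cholesterol, was at 6.90, 5.63 and 4.19 CPM at T0, 56.1, 44.3 and 68.3 at day 7 and 126, 95.6 and 94.8 at day 14. With RA, Abca1 was at 161, 175 and 185 at day 7 and 379, 309.6 and 399 at day 14. No 2 groups overlapped, and the RA change was 1.70 ± 0.11, adjusted p = 9.01e-20 (3.26-fold). Lipa, the lysosomal lipase that frees cholesterol from its esters, rose with RA by 1.53 ± 0.12, adjusted p = 1.37e-10, and Vldlr, a lipoprotein receptor, by 0.72 ± 0.13, adjusted p = 0.000474. The call of Vldlr was lost in 6 of 15 single omissions (0.65 to 0.80). With time, Npc2 (0.69 ± 0.12), Npc1 (0.96 ± 0.17) and Mylip (2.53 ± 0.46, or 2.09 to 3.85 with 1 library left out, the highest without T0 replicate 1) rose at day 14 and Soat1, which esterifies cholesterol, fell (-0.72 ± 0.14, adjusted p = 2.12e-05, or -0.61 and not called without T0 replicate 1).

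Of 18 other genes of fatty acid synthesis in the table, 3 rose at day 7, and 4 rose and 2 fell at day 14, where the shares of all genes were 4.29% at day 7 and 8.47% and 8.85% at day 14. Scd2 (T14 2.62 ± 0.10), Idh1 (1.23 ± 0.18) and Tecr (0.76 ± 0.14) were among those that rose, with Tecr not called without T0 replicate 3 (0.59), and Fads3 (-0.79 ± 0.12) among those that fell. With RA 1 of the 18 rose and 1 fell, against 3.33% and 3.07% of all genes. The elongase Elovl5 rose (0.87 ± 0.14, adjusted p = 2.11e-06), with 32.2 to 60.5 CPM in the later cultures without RA and 82.3 to 94.3 CPM with RA. Acacb, the mitochondrial acetyl-CoA carboxylase, was at 0 reads in all 3 T0 libraries, at 40.8, 26.6 and 38.9 CPM in T14-RA and at 3.86, 7.86 and 10.9 CPM in T14+RA, and was called lower with RA (adjusted p = 4.55e-05), a call lost without T14-RA replicate 1 or T14+RA replicate 1, with changes of -2.29 to -1.67 over all single omissions.

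Of 19 genes of glycerolipid synthesis and fatty acid activation, 2 rose and 2 fell with RA, against 3.33% and 3.07% of all genes. Acsl4 (0.69 ± 0.099, adjusted p = 1.31e-07), a relative of Acsl3, and Plin2 (0.58 ± 0.11, adjusted p = 3.71e-05), a coat protein of lipid droplets, rose. Lpin3 (-0.88 ± 0.13, adjusted p = 6.81e-07) and Pcyt2 (-0.64 ± 0.12, adjusted p = 3.65e-05), an enzyme of phosphatidylethanolamine synthesis, fell. In the T7 term 1 gene of this list rose, Pcyt2 (1.06 ± 0.18), and 1 fell, Agpat3 (-0.78 ± 0.16, not called without T0 replicate 1 or T7-RA replicate 3, with -0.81 to -0.72 over all omissions), against 4.29% and 4.44% of all genes. In the T14 term 5 rose, Pcyt2, Acsl1, Acsl4, Plin2 and Plin3, and Agpat3 alone fell, against 8.47% and 8.85%. That T14 call of Agpat3 was lost in 4 of 15 single omissions (-0.75 to -0.63).

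Other gene groups moved with the same conditions. The summed level of the skeletal markers was 2952 to 3402 CPM in T7-RA and 1917 to 2225 in T7+RA, and that of 9 sarcomere genes 14683 to 15205 CPM in T14-RA and 5923 to 7255 in T14+RA, so both sums were lower with RA. Single genes differed: 4 of the 9 skeletal markers and 5 of the 9 sarcomere genes were called lower in the RA term and 0 higher, against 3.07% and 3.33% of all genes, with 3 and 1 positive changes and the call of Actn2 lost without T14-RA replicate 1, and Myh3, which is on both lists, made up 4937 to 5209 CPM in T14-RA and 1747 to 2119 in T14+RA. The sum of 12 proliferation genes was 2955 to 3191 CPM at T0, 1029 to 1063 in T14-RA and 739 to 886 in T14+RA. The sum of the 3 adipocyte markers in the table was 44.1 to 71.2 CPM in T7-RA and 22.8 to 27.1 in T7+RA. Most of it was Lpl, a lipase that muscle also expresses, at 38.2 to 66.8 and 20.1 to 22.8 CPM, the only 1 of the 3 called in the RA term, while Plin4, at 0 to 7 reads in any library, had an RA change of -2.11 ± 0.61, adjusted p = 0.0104 and Cebpa of 0.15 ± 0.69. The part of these in the changes of the lipid synthesis genes was not tested.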

How the data were processed

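RNA-seq counts of 15 H9c2 cultures were analysed in 5 groups of 3, taken with their replicate numbers from the sample labels. The authors deposited raw counts per gene, made with HISAT2 and featureCounts on Rnor_6.0 according to the submitters' processing notes, and kept genes with more than 20 counts in all. The smallest sum in the table was 21. Libraries were prepared with a stranded kit, and neither the release of the annotation nor the counter's strand option is given in the sources used here. The table has 0 other columns of samples.

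edgeR 4.0.16 in R 4.3.3 was run on all 11574 genes, with TMM scaling and robust quasi-likelihood F tests (common dispersion 0.00962). The study's formula gave the T7, T14 and RA terms, and a mean for each group gave the changes with RA at each day, the second week and the difference between days. P-values were adjusted by the Benjamini-Hochberg method over all genes, and genes were called at 0.001, or 0.05 for the difference. Fold changes are fitted log2 values. P-values measure the spread between these cultures only, and with 3 against 3 an exact permutation test of 1 value cannot go below 0.1.

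The members and lists were chosen with earlier results of these data known. Values in every culture are given for members called for RA in any RA comparison and for the 6 with the largest T7 or T14 change among those called. From the other lists, up to 4 called genes of lowest p are named for RA and for time. Alternatives were DESeq2 1.42.0, limma-voom (limma 3.58.1), other scalings, a filter, another threshold, a replicate block and each library left out. The scripts were tested on simulated counts. Libraries held 508397 to 1030820 counts, which limits genes of few reads.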

Additional observations from a re-analysis of the deposited data

Results flagged for a closer look

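For 1 member and 2 genes of the other lipid lists, among 33 genes higher and 53 lower in the whole table, the edgeR test found a different RA change at day 14 than at day 7 (adjusted p under 0.05). Scd had an RA change of -0.46 ± 0.11 at day 7 and 1.03 ± 0.10 at day 14 on the log2 scale, a difference of 1.50 ± 0.15, adjusted p = 5.11e-11. It was lower with RA in 3 of 3 cultures at day 7 and higher in 3 of 3 at day 14.

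Vldlr, a lipoprotein receptor of the uptake list, had an RA change of 0.26 ± 0.11 at day 7 and 1.20 ± 0.11 at day 14, a difference of 0.93 ± 0.16, adjusted p = 9.95e-05. Its level at day 7 was 345, 335 and 283 CPM without RA and 372, 392 and 394 with RA. At day 14 it was 261, 211 and 234 without RA and 527, 499.8 and 607 with RA. It was higher with RA in 3 of 3 cultures at both days.

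Lipa, the lysosomal acid lipase, had an RA change of 1.12 ± 0.12 at day 7 and 1.93 ± 0.12 at day 14, a difference of 0.81 ± 0.18, adjusted p = 0.00587. Without T7-RA replicate 3 the difference was 0.65 and was not called (adjusted p = 0.0835). Its level at day 7 was 180.1, 155 and 225 CPM without RA and 398, 373 and 446 with RA. At day 14 it was 175, 165 and 174 without RA and 629.9, 677 and 667 with RA. All 6 cultures with RA lay above all 6 without RA.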

How the results depend on the processing

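Of 83 calls of members over the 8 comparisons, 83 held with edgeR's filter, with relative log expression factors and with library size only, 73 with limma-voom and 69 with DESeq2, and 0 changed direction. Over all single omissions of a library, 1121 of 1245 held and 0 changed direction. With means for each group, the T7 call of Mvk and the T14 call of Ebp were lost.

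At an adjusted p under 0.05, RA raised 2 members, RA at day 7 raised 1 and lowered 16, and RA at day 14 lowered 15. In the same order, the counts over all 11574 genes were 856, 478, 380 and 664. The second week without RA then raised 1 and lowered 3, and with RA it lowered 3, against 486, 416 and 660 of all genes. None of these counts of raised members was above the share of all genes. With DESeq2, RA at day 14 lowered 3 and the second week with RA raised 1. In the second week without RA, 1 member was lowered with library size only and 1 with the replicate block. Numbers are shared between groups without a stated pairing. The deviations of same-numbered cultures correlated at a mean of 0.0321 (-0.0394 to 0.186, 30 pairs), against -0.016 (-0.157 to 0.0837, 60 pairs) for different numbers, and since not every pair was over 0.1 the numbers were not used as pairs. The block lost 1 of 83 calls (T7 term: Scd, 2.86). Library size only moved the median of all genes to 0.127 at day 7 and 0.151 at day 14. It put the sterol medians at 1.40 and 1.32 and the fatty acid medians at 0.91 and 0.68.

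Means in place of medians gave -0.53 (RA) and -0.56 (RA at day 7) for the sterol enzymes and 1.11 (T7), 1.10 (T14) and 0.016 (RA) for the fatty acid genes. Among fatty acid genes with a mean of at least 10 counts, the T14 median was 0.43, and the RA median at day 7 changed sign to 0.018. A shorter sterol element, CACNCCAC, added after the data were seen, was found in promoters of 4 members in place of 0. The cause of these shifts was not tested beyond the change in genes or scaling that defines each alternative.

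With each library left out in turn, members raised ranged from 21 to 25 at day 7 and from 17 to 22 at day 14, the lowest without T0 replicate 1 in both. RA lowered 11 to 17 and raised 1 to 2, RA at day 7 lowered 6 to 9, and RA at day 14 lowered 1 to 8 and raised 2 to 3. The second week raised 1 to 3 with RA and lowered 0 to 1 without RA. The sterol medians ran from 1.23 to 1.37 (T7), 1.12 to 1.24 (T14), -0.62 to -0.58 (RA), -0.69 to -0.61 (RA at day 7) and -0.57 to -0.47 (RA at day 14). The fatty acid medians ran from 0.76 to 0.87, 0.55 to 0.62, 0.10 to 0.17, -0.14 to -0.064 and 0.064 to 0.31 in the same order, with the last at 0.064 without T14+RA replicate 3 and 0.092 without T14-RA replicate 2.

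Few reads limit Lpin1, Ggps1, Stard4 and Insig2, which with Scd had the 5 widest standard errors of the members in the T14 term. The depth does not allow a statement that genes not called did not change.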
